A study of Mus musculus with 58 samples.

Results

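Open chromatin at gene promoters was described in hematopoietic stem cells (HSCs) of old calorie-restricted mice, before and after refeeding. A promoter peak was any ATAC-seq consensus peak that shared at least 1 base with a promoter window in the deposited H3K4me3 table of restricted HSCs. Each window in that table covers 750 bp from the transcription start site (TSS) of a transcript into the gene. By this rule 15821 of 131918 consensus peaks were promoter peaks, which is 12.0%, and they covered windows of 15861 of the 25127 genes in the table (63.1%). The rule used position alone, so no accessibility value chose the members.

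The HSCs were wild type and came from bone marrow of male C57BL/6 mice aged 24 to 26 months. They were sorted as propidium iodide-negative, Lin-, Sca-1+, c-Kit+, CD34-, Flk2- and CD150+ cells. OCR mice had eaten a diet restricted by 40% since the age of 3 to 4 months, and OCRRF mice had the same lifelong restriction followed by 4 weeks of full feeding. ATAC-seq was analysed for 4 OCR and 2 OCRRF libraries of 6000 HSCs each, H3K4me3 and H3K27me3 for 2 OCR libraries each, and RNA-seq for 4 OCR, 2 OCRRF and 4 OAL libraries, OAL being mice of the same age that ate ad libitum. ATAC-seq and histone libraries of OAL mice were not analysed here, so accessibility has no ad libitum level to stand beside. Whether the libraries of a group came from separate mice is not stated in the labels, and p-values measure only the spread between these libraries.

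ATAC-seq finds DNA that the Tn5 transposase can reach. At a promoter in use, nucleosomes are cleared at the TSS and flanking nucleosomes carry trimethylated lysine 4 of histone H3 (H3K4me3), while Polycomb complexes place H3K27me3 on promoters kept silent. Promoters with both marks, called bivalent, are typical of developmental regulators in stem cells. Many promoters rich in CpG stay open whether or not the gene is being transcribed strongly, so accessibility and RNA are separate readouts. In bulk libraries of this kind, fewer cells of a type and less signal per cell cannot be told apart.

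The promoters whose accessibility or RNA the comparisons turned on are printed first, so that their sequence stands beside their values. RefSeq promoters on GRCm38.p6 (mm10) were used, each 300 bases long from 250 bases before the TSS, and position 0 is the TSS. The 6 shown lie wholly inside their promoter peak. Txnip, Pdk4, Jun and Sult1a1 had higher accessibility and RNA in OCRRF, and Mcm5 and Cdk1 had lower RNA without a tested difference in accessibility. Txnip is at chr3:96557707-96558006 on the plus strand and Pdk4 at chr6:5496229-5496528 on the minus strand. Jun is at chr4:95052173-95052472 and Sult1a1 at chr7:126676369-126676668, both on the minus strand. Mcm5 is at chr8:75109259-75109558 on the plus strand and Cdk1 at chr10:69352863-69353162 on the minus strand. All are written 5′ to 3′ on the strand of the gene, and capitals mark the motif letters found in them.
Txnip: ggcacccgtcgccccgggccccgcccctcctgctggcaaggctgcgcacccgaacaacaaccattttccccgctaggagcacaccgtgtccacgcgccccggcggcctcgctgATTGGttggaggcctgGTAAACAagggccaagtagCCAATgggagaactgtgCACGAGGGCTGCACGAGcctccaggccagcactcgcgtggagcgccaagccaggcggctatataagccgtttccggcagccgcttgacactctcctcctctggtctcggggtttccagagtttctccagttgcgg
Pdk4: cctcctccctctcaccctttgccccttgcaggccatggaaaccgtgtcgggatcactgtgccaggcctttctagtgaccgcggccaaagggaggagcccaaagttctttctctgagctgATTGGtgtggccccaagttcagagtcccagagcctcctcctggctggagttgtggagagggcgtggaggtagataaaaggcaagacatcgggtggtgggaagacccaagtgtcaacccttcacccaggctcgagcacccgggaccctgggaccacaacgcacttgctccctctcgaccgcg
Jun: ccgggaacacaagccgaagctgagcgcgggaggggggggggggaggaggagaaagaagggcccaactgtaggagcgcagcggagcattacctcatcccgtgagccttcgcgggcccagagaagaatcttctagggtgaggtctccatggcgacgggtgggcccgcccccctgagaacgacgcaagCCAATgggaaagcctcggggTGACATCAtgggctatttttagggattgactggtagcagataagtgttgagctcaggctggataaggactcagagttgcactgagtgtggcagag
Sult1a1: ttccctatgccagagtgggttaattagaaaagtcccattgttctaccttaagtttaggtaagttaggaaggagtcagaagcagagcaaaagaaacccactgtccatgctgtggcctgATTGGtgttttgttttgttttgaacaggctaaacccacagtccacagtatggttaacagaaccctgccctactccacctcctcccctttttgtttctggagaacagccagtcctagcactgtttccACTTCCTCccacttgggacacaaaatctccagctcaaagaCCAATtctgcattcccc
Mcm5: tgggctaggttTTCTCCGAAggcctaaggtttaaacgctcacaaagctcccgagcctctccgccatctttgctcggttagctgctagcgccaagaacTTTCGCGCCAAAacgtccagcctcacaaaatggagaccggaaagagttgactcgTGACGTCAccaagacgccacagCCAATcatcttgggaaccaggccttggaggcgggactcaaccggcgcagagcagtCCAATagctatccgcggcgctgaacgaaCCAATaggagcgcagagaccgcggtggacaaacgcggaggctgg
Cdk1: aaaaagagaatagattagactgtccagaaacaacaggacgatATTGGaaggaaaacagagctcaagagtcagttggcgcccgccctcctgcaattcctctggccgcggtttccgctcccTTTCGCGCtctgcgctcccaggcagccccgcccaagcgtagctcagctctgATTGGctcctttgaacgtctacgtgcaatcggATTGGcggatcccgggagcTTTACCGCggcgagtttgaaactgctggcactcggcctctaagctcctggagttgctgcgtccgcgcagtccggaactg

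In Txnip the longest run of capitals, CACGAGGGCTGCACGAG at -85 to -69, matches a carbohydrate response element, made of E-box-like sites a short spacer apart, the letters that the glucose-sensing factors MondoA and ChREBP are known to read. That element was present in 14 of 27025 RefSeq promoters (0.0518%) and in 9 of the 12312 promoters of genes with a promoter peak (0.0731%). A FOXO match (TGTTTAC, read on the other strand as GTAAACA) lay at -121 to -115 in Txnip, and 3.55% of all promoters hold one. Jun carried TGACATCA at -45 to -38, a match to the CRE letters TGACNTCA that 8.97% of promoters hold. Sult1a1 carried an ETS match (GAGGAAGT, read as ACTTCCTC) at -7 to 0, present in 3.28% of promoters. In Pdk4 a single CCAAT match, read as ATTGG at -131 to -127, was found.

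Of the 6 promoters, those of the cell cycle genes Mcm5 and Cdk1 alone held E2F letters. CCAAT letters lay in all 6, and CRE letters in Jun and Mcm5. Mcm5, a subunit of the replicative helicase, held overlapping E2F matches (TTTNNCGC) at -153 to -146 and, on the other strand, at -149 to -142. It also held a CRE match at -99 to -92, a STAT match (TTCNNNGAA) at -239 to -231 and 3 CCAAT matches. Cdk1, the kinase that drives mitotic entry, held E2F matches at -131 to -124 and -29 to -22 and 3 CCAAT matches read as ATTGG. E2F letters were present in 14 of 31 promoters of S phase genes (45.2%), in 4 of 47 of G2/M genes (8.51%), in 8.15% of genes with a promoter peak and in 5.27% of all promoters. CCAAT was present in 71.0% of S phase and 76.6% of G2/M promoters, against 38.1% of genes with a promoter peak and 37.9% of all. All motifs were searched on both strands. E-box and AP-1 letters (CACGTG and TGANTCA), which 7.24% and 7.93% of promoters hold, had no match in the 6 windows. SP, TATA and glucocorticoid letters were counted over all promoters (35.9%, 14.2% and 0.463%) and are not capitalised. AP-1 and CRE matches can overlap, as can E-box and carbohydrate response matches. A match is a description of letters and not of binding.

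Promoter peaks differed from the rest of the consensus peaks in build. Their median width was 1065 bp against 454 bp for the other 116097 peaks, their median GC content 59.2% against 46.6%, and their ratio of observed to expected CpG 0.684 against 0.194. A median promoter peak held 17.3 CPM per kilobase over the 6 libraries, CPM being reads scaled to the same library total, compared with 4.85 for the others. A TSS lay inside 14275 of them (90.2%), and 1477 (9.34%) overlapped windows on both strands, as divergent gene pairs do. The 665 promoter peaks whose largest overlap was 100 bases or less had a median of 6.72 CPM per kilobase in OCR HSCs, and the 405 other peaks that lay under 100 bases from a window had 6.70.

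Promoter peaks drew a like part of the reads in both groups. In OCR HSCs 44.2% ± 0.27 (SD, n = 4) of the reads in consensus peaks fell in promoter peaks, and in OCRRF HSCs 44.3% ± 0.93 (SD, n = 2). The difference was smaller than the spread between libraries (two-sided exact permutation test, p = 0.80, where 0.0667 is the smallest p that 4 against 2 libraries allow), and its sign turned without OCR replicate 1 (-0.0111 points) and without OCRRF replicate 1 (-0.534 points). Libraries held 15721335 to 19558148 reads in consensus peaks, and RNA-seq libraries 23497989 to 34385179 counts on genes. Over 13690 promoter peaks the log2 CPM of OCR libraries correlated at r = 0.987 to 0.989 with each other and at 0.983 to 0.987 with OCRRF libraries. RNA of the 12 HSC markers summed to 4176 to 4985 CPM in OCR and 4043 to 4261 in OCRRF with none at 0, while the T cell and stroma markers each summed to under 10 CPM in every library. B cell markers summed to 1.74 to 4.46 CPM in OCR and 7.41 to 8.34 CPM in OCRRF, ranges that did not overlap. Myeloid markers summed to 6.52 to 48.8 CPM in OCR and 34.0 to 38.2 in OCRRF, erythroid markers to 14.5 to 33.4 and 27.2 to 77.3, and endothelial markers, through Pecam1, to 65.5 to 72.2 and 68.7 to 97.0. Their part in the results below was not tested.

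How far open promoters follow histone marks was examined in OCR HSCs, the group with all 3 readouts. Of 30009 distinct windows, 4.12% in the lowest quartile group of H3K4me3 signal held an ATAC-seq peak, and 51.6%, 97.2% and 97.0% in the following groups. For H3K27me3 the shares ran 83.1%, 75.8%, 33.1% and 58.0% from the lowest to the highest group, so the windows with the most H3K27me3 held peaks more often than those just below them. Histone values here are the deposited mean signal per base, and the groups were cut over all windows. A peak with several windows took the highest value for each mark. The H3K4me3 libraries ranked windows alike (Spearman rho 0.968), and the H3K27me3 libraries at rho 0.906.

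The degree of opening went with H3K4me3 as well. Median accessibility in OCR HSCs was 4.16 CPM per kilobase in promoter peaks of the lowest H3K4me3 quartile group and 6.89, 17.2 and 26.3 in the others. The 4 OCR libraries gave medians of 25.7 to 26.5 for the highest quartile group and 4.11 to 4.31 for the lowest, so these levels did not overlap between libraries. By H3K27me3 quartile group the medians were 23.5, 21.8, 14.4 and 8.46 CPM per kilobase. Across 15821 promoter peaks accessibility correlated with H3K4me3 at rho 0.568 and with H3K27me3 at rho -0.423, while its correlation with GC content was 0.0897. These correlations are descriptions over peaks that share libraries and base composition.

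**Figure D1:**
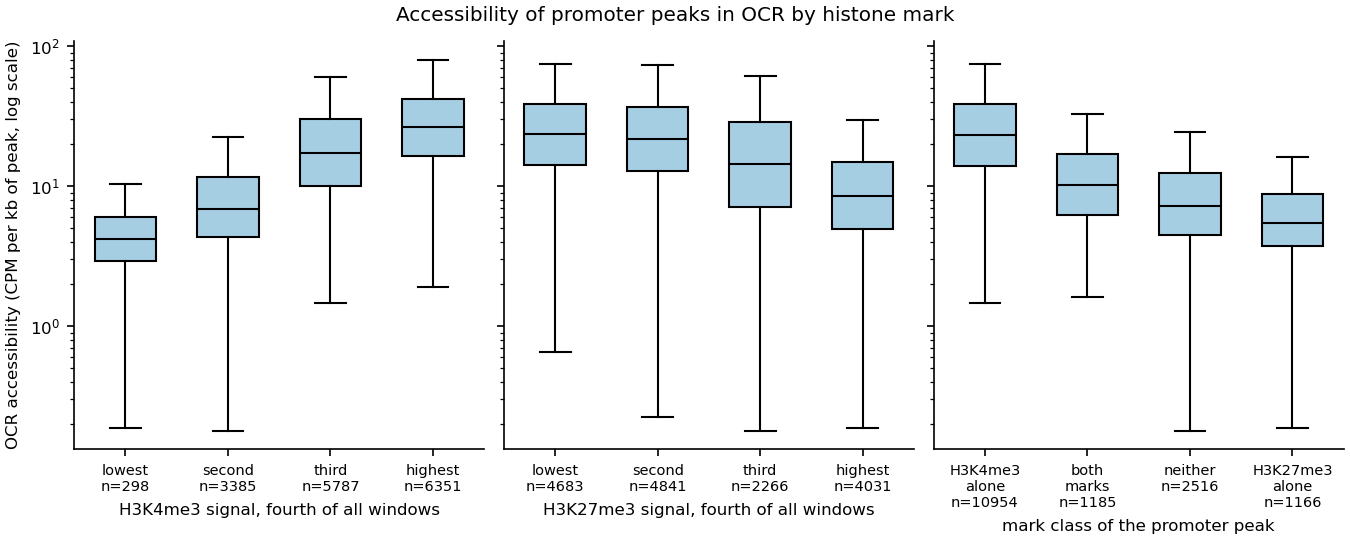
Accessibility of promoter peaks in OCR HSCs (mean of 4 libraries, CPM per kilobase of peak, log axis) by quartile group of H3K4me3 signal, quartile group of H3K27me3 signal and mark class; boxes span the quartiles with a line at the median, whiskers reach the last peak within 1.5 box lengths and further peaks are not drawn. The medians climb from 4.16 to 26.3 with H3K4me3 and go from 23.5 to 8.46 with H3K27me3.

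RNA separated the same promoters. Ordered by the RNA of their gene in OCR HSCs, promoter peaks had median accessibility of 7.44, 17.5, 23.1 and 24.7 CPM per kilobase from the lowest to the highest quartile group. Where a peak had several genes, the highest RNA was used. Most of the step was between the lowest group and the next. Accessibility correlated with RNA at rho 0.474 over 15663 peaks, while H3K4me3 did at 0.717 and H3K27me3 at -0.678. The most accessible promoter peaks per kilobase were those of Khsrp, an RNA-binding splicing regulator, at 266 CPM per kilobase, of Evi5l at 252, of the divergent pair Hdgfl2 and Ubxn6 at 208, of the divergent pair Aasdhppt and Kbtbd3 at 208, and of Osbp, a sterol transport protein, at 205. Their RNA in OCR HSCs ran from 14.6 to 19.9 CPM for Kbtbd3 up to 205 to 239 CPM for Khsrp. Their log2 fold changes in accessibility between OCRRF and OCR ran from 0.03 to 0.10 and none passed the test.

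Promoter peaks fell into 4 mark classes. A peak was counted as carrying H3K4me3 when its highest window lay in the upper 50% of windows (above 9.05). It carried H3K27me3 when its highest window for that mark lay in the top 10% (above 2.78). The marks of a peak can thus come from different windows. Of the promoter peaks, 12069 (76.3%) had 1 window and 1625 (10.3%) had windows of more than 1 gene. H3K4me3 alone marked 10954 peaks, with a median of 23.2 CPM per kilobase and a median RNA of 52.0 CPM. Both marks stood on 1185 peaks, with 10.1 CPM per kilobase and 1.54 CPM of RNA. H3K27me3 alone marked 1166 peaks, at 5.41 CPM per kilobase and 0.939 CPM of RNA, and 2516 peaks had neither mark, at 7.21 and 1.66. Peaks with both marks were thus more open than those with neither at about the same RNA level. RNA above 1 CPM was found for 98.4% of the peaks with H3K4me3 alone, 64.9% with both marks, 62.4% with neither and 47.4% with H3K27me3 alone. Median GC content was 63.3% with both marks and 52.2% with neither.

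Of 22 developmental regulators that blood cells keep silent, 18 had a promoter peak, and 10 of these carried both marks and 8 H3K27me3 alone. Their median H3K27me3 signal was 7.04 against 0.234 over all promoter peaks tested, their median accessibility 10.0 CPM per kilobase and their median RNA 0.463 CPM. Sox17, a transcription factor of endoderm and of fetal HSCs, was the most open of them at 41.5 CPM per kilobase, although its H3K27me3 signal was 4.34 and its RNA 0.261 to 1.13 CPM in OCR libraries. Gata4, a cardiac and endodermal factor, was the least open at 2.98 CPM per kilobase with an H3K27me3 signal of 8.36. Sox17 accessibility was 46.7, 47.8, 44.6 and 53.7 CPM in OCR and 63.2 and 58.6 CPM in OCRRF. The groups did not overlap, as was so at 22.8% of all promoter peaks tested. Sox17 was the 1 member of the 18 tested that passed the test of OCRRF against OCR (log2 fold change 0.34, SE 0.07, edgeR adjusted p = 0.0202). Among all promoter peaks tested 0.414% passed higher. The adjusted p of Sox17 stayed under 0.05 in only 1 of the 6 fits that each left out 1 library. Its RNA was 1.05 and 1.14 CPM in OCRRF, with no tested difference (adjusted p = 0.628 in edgeR).

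The comparison of OCRRF with OCR HSCs asks which promoters open or close once restriction ends. Few promoter peaks passed the thresholds, and with 2 OCRRF libraries those that did not pass cannot be taken as unchanged. At an edgeR adjusted p under 0.05, a fold change above 1.5 and a mean level above 1.5 log2 CPM, 17 of 15704 tested promoter peaks were called (0.108%), against 256 of 107668 other peaks (0.238%) and 0.221% of all peaks. Of the 17, 5 were higher in OCRRF (0.0318%, against 0.145% of other and 0.13% of all peaks) and 12 lower (0.0764%, against 0.0929% and 0.0908%). By adjusted p alone 93 promoter peaks passed (0.592%, against 0.515% of other and 0.525% of all peaks). Of these 65 were higher (0.414%, against 0.344% and 0.353%) and 28 lower (0.178%, against 0.172% and 0.173%). A further 117 promoter peaks had too few reads to be tested. At an unadjusted edgeR p under 0.05 there were 2089 promoter peaks, or 13.3%, against 11.5% of other and 11.7% of all peaks.

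The fold changes at promoters were small. The middle of the distribution lay at a log2 fold change of 0.02, and 90% of promoter peaks lay between -0.35 and 0.27, where other peaks ran from -0.75 to 0.56. Of the 14351 promoter peaks above the level limit, 80 differed by more than 1.5-fold (0.558%), and of 51154 other peaks above it, 1644 did (3.21%). The median standard error was 0.106 at promoter peaks and 0.194 at other peaks. The libraries of the groups did not overlap at 3585 promoter peaks (22.8%), compared with 20.4% of all peaks.

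The calls depended on single libraries of both groups. Without OCRRF replicate 1 there were 1 higher and 3 lower, and 1 of the 17 was among them. Without OCRRF replicate 2 there were 10 higher and 8 lower, with 6 of the 17. Without OCR replicate 2 there were 5 higher and 4 lower, with 5 of the 17, and without OCR replicate 1 there were 6 higher and 7 lower, with 8 of the 17.

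**Figure D2:**
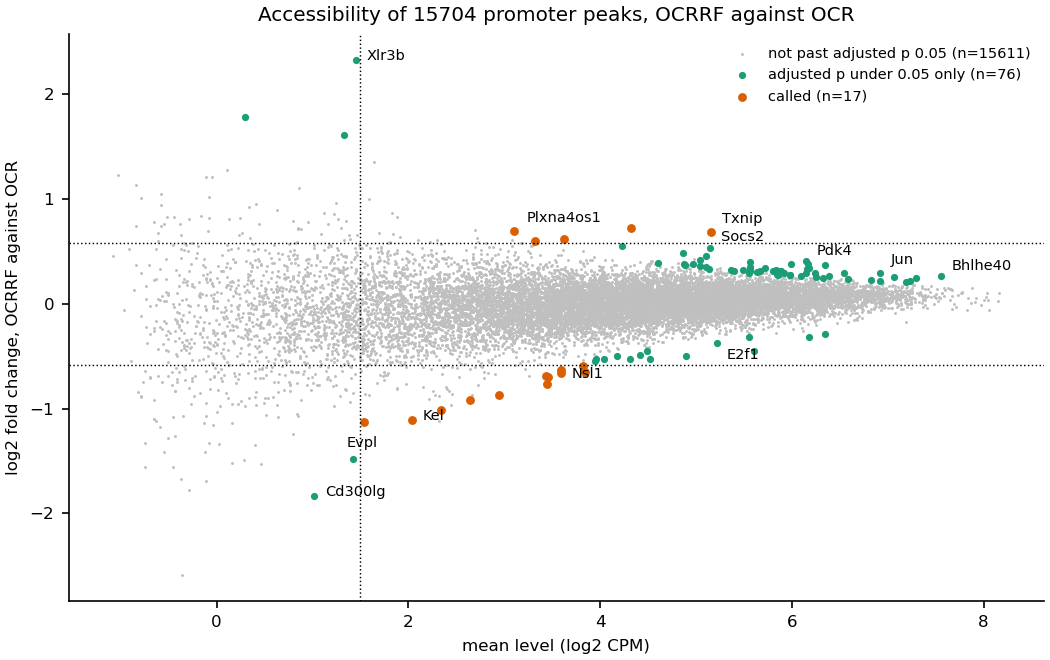
Log2 fold change in accessibility of OCRRF against OCR HSCs and mean level (log2 CPM) of the 15704 promoter peaks tested, 1 point per peak; dotted lines mark a 1.5-fold change and a level of 1.5 log2 CPM, and orange points are the 17 called peaks. They are few, while well covered promoters such as Bhlhe40 and Jun pass the adjusted p with folds below 1.5.

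Among 18 genes that stood on called promoter peaks and had tested RNA, 4 were called in RNA (22.2%), all in the direction of the peak. Over all 15052 genes with both readouts 6.48% were called in RNA. The 4 were 3 of 4 genes at higher peaks and 1 of 14 genes at lower peaks. Txnip, which encodes a glucose-induced inhibitor of thioredoxin and of glucose uptake, had the smallest adjusted p of them. Its promoter peak held 27.6, 29.5, 30.9 and 30.4 CPM in OCR and 51.3 and 44.0 CPM in OCRRF. Every OCRRF value was above every OCR value (fold change 1.61, log2 fold change 0.69, SE 0.08, edgeR adjusted p = 7.26e-06). This stayed under 0.05 with each of the 6 libraries left out (highest 0.0117). Txnip RNA was 1231, 1061, 1152 and 1315 CPM in OCR and 2560 and 1699 CPM in OCRRF. The RNA was higher in OCRRF (log2 fold change 0.84, adjusted p = 2.99e-05 in edgeR), although without RNA OCRRF replicate 1 it was 0.50 and did not pass (adjusted p = 0.276).

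Sult1a1, a phenol sulfotransferase, held 8.46, 9.77, 8.35 and 7.07 CPM in OCR and 12.7 and 12.9 CPM in OCRRF. The groups did not overlap (log2 fold change 0.60, SE 0.15, edgeR adjusted p = 0.0456). The adjusted p stayed under 0.05 in only 1 of the 6 fits that each left out 1 library. Its RNA rose from 149 to 201 CPM over OCR libraries to 344 and 303 CPM. Plxna4os1, a noncoding RNA antisense to a plexin gene, held 13.2, 17.0, 16.5 and 18.9 CPM in OCR and 29.8 and 24.1 CPM in OCRRF (log2 fold change 0.72, SE 0.12, edgeR adjusted p = 0.00059). Its RNA rose by a log2 fold change of 0.81, and whether the RNA counting used strand is not given in the sources used here.

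Nsl1, a subunit of the MIS12 kinetochore complex, shares its promoter peak with Tatdn3 on the other strand. The peak held 13.6, 13.5, 13.5 and 13.5 CPM in OCR and 8.81 and 8.71 CPM in OCRRF. All OCR values were above both OCRRF values (log2 fold change -0.63, SE 0.14, edgeR adjusted p = 0.0234). The adjusted p stayed under 0.05 in only 2 of the 6 fits that each left out 1 library. Nsl1 RNA was 24.8, 23.6, 16.7 and 20.3 CPM in OCR and 11.8 and 8.91 CPM in OCRRF, a fall that passed the test (log2 fold change -1.04, adjusted p = 0.000245 in edgeR).

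At the remaining called promoters the RNA of the gene did not pass its test, passed in the other direction or could not be tested. Ikzf1, which encodes the lymphoid regulator Ikaros, has 2 promoter peaks. The internal one, at chr11:11689959-11690527, held 7.91, 6.20, 7.56 and 6.25 CPM in OCR and 10.3 and 12.3 CPM in OCRRF (log2 fold change 0.69, SE 0.16, edgeR adjusted p = 0.0316). At the main one, which held 51.5 to 59.2 CPM in OCR, the log2 fold change was -0.05, while Ikzf1 RNA fell (log2 fold change -0.45, adjusted p = 0.0255 in edgeR). Dipk1b, a membrane protein of unresolved function, was higher by 0.62 with no tested RNA difference.

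Among the 12 lower peaks, the largest differences were at thinly covered promoters. Evpl, an envelope protein of cornified cells, had a log2 fold change of -1.13 at 2.95 to 3.81 CPM in OCR, and Kel, the Kell blood group protein, -1.11 at 3.82 to 5.90 CPM. Tnfrsf26, a decoy receptor of the TNF family, had -1.01 at 5.48 to 6.69 CPM in OCR against 3.05 and 2.84 CPM in OCRRF. Gm15910 (-0.92), LOC102639700 (-0.87) and A930017M01Rik (-0.76) are noncoding or predicted genes. Slc39a11, a zinc transporter, had -0.70, Sstr2, a somatostatin receptor, -0.69, Trhde, which degrades thyrotropin-releasing hormone, -0.66, and Abca5, a lipid transporter, -0.65. The last of the 12 was Ifi44l (-0.59), an interferon-induced gene that the naming rule did not reach and that was named after its values were seen. RNA could be tested at 11 of the 12 lower peaks, LOC102639700 being the exception. Among their 14 genes Nsl1 alone passed (7.14%), a share near the 6.48% of all 15052 genes with both readouts.

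Of these, Abca5, Slc39a11 and Sstr2 lie near each other on chromosome 11. The other peaks within 1 Mb had a median log2 fold change of -0.33 around Abca5 and of -0.24 around both Slc39a11 and Sstr2, compared with 0.03 for the median of 1076 bins of 2 Mb. Less that regional value, their differences were -0.32, -0.46 and -0.45. Around Nsl1 the median was -0.18, leaving -0.45, and around Txnip it was 0.01.

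By adjusted p alone, promoters with higher accessibility in OCRRF included a group known from fasting and feeding. Of 28 genes of fuel switching and feeding response, 27 had a tested promoter peak, and 3 passed (Txnip, Socs2 and Pdk4), all higher, where 0.414% of all promoter peaks passed higher. More open promoters passed more often, with 38 of 3955 higher in the most accessible quartile group and 3 of 3839 in the lowest. The list had a median of 33.6 CPM per kilobase, against 17.4 for all promoter peaks tested. The log2 fold change was above 0 for 25 of the 27, with a median of 0.09 against 0.02 over all promoter peaks, of which 8543 of 15704 were above 0. Values of other lists were alike, with 11 of 12 housekeeping promoters above 0 at a median of 0.10 and 9 of 12 HSC markers at 0.11, and the most accessible quartile group of promoter peaks had a median of 0.05. RNA was higher in OCRRF for 9 of the 27 and lower for 1, against 1.1% and 5.35% of genes with a promoter peak. The list was drawn up with earlier results of these RNA libraries known, so its direction is no independent evidence.

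Pdk4, a mitochondrial kinase that inhibits pyruvate dehydrogenase when cells burn fat, held 60.0, 60.9, 65.9 and 68.4 CPM in OCR and 87.1 and 82.3 CPM in OCRRF at its promoter. The groups were apart (log2 fold change 0.41, SE 0.07, edgeR adjusted p = 0.000543). Without OCRRF replicate 1 the adjusted p was 0.0525. Pdk4 RNA was 1.30, 1.87, 2.54 and 2.35 CPM in OCR and 13.9 and 8.12 CPM in OCRRF, a log2 fold change of 2.45 (adjusted p = 4.02e-08 in edgeR). In the comparison of OCR with OAL, which uses the same OCR libraries, the RNA log2 fold change was -2.40. A promoter with a 1.33-fold difference in accessibility thus stood beside RNA with a 5.47-fold difference.

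Socs2, a feedback inhibitor of growth hormone and cytokine signalling, carried both histone marks, with H3K4me3 at 26.1 and H3K27me3 at 4.13. Its promoter peak held 27.8, 33.5, 31.3 and 30.5 CPM in OCR and 49.5 and 39.6 CPM in OCRRF. All OCRRF values were higher (log2 fold change 0.54, SE 0.09, edgeR adjusted p = 0.000822), though with OCRRF replicate 1 left out the adjusted p was 0.192. Socs2 RNA was 3.08 to 5.52 CPM in OCR and 34.8 and 18.6 CPM in OCRRF (log2 fold change 2.51), and -1.37 in OCR against OAL.

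Other members of the list moved in RNA with small differences at the promoter. Ppargc1a, a coactivator of mitochondrial genes, had an accessibility log2 fold change of 0.27 that missed the threshold (edgeR adjusted p = 0.0602) and an RNA log2 fold change of 0.75 that passed (adjusted p = 0.0357). Cpt1a, the carnitine transferase that lets fatty acids into mitochondria, held 59.7 to 66.2 CPM in OCR and 69.3 and 65.6 CPM in OCRRF. Its ranges overlapped, with a log2 fold change of 0.08 in accessibility and 0.48 in RNA (adjusted p = 0.0116 in edgeR). The RNA of Klf11, Cish, Arrdc4 and Klf10 rose by 0.72 to 1.17 on the log2 scale, and their promoters differed by 0.06 to 0.24 without passing.

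Immediate early genes respond to growth factors within minutes. Of 22, 20 had a tested promoter peak with a median log2 fold change of 0.15, and Jun and Klf6 passed, both higher, against 0.414% of all promoter peaks. Their median accessibility was 28.8 CPM per kilobase, and in the 2 most accessible quartile groups 19 and 38 of 3955 peaks each passed higher. Jun, a subunit of AP-1, held 104, 111, 114 and 121 CPM in OCR and 147 and 129 CPM in OCRRF (log2 fold change 0.30, SE 0.06, edgeR adjusted p = 0.00778). The groups did not overlap, but without OCRRF replicate 1 the log2 fold change was 0.20 and the adjusted p 0.306. Jun RNA was 22.6 to 28.7 CPM in OCR and 77.7 and 43.5 CPM in OCRRF (log2 fold change 1.24, adjusted p = 8.66e-07 in edgeR), against -1.13 in OCR versus OAL. Klf6, a zinc finger factor, had 0.23 in accessibility and 0.22 in RNA, the RNA not passing. Fos (0.36), Jund (0.29) and Klf4 (0.28) had promoter values above 0 that did not pass.

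Bhlhe40, a clock-related repressor induced by nutrients and cytokines, had one of the more open promoters, with 170, 178, 177 and 180 CPM in OCR and 219 and 206 CPM in OCRRF. A difference of this size passed there (log2 fold change 0.27, SE 0.05, edgeR adjusted p = 0.00261). Its RNA rose by a log2 fold change of 0.68. Small folds of this kind were common among promoter peaks that passed, whose median absolute log2 fold change was 0.37, against 0.65 for the peaks elsewhere that passed.

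**Figure D3:**
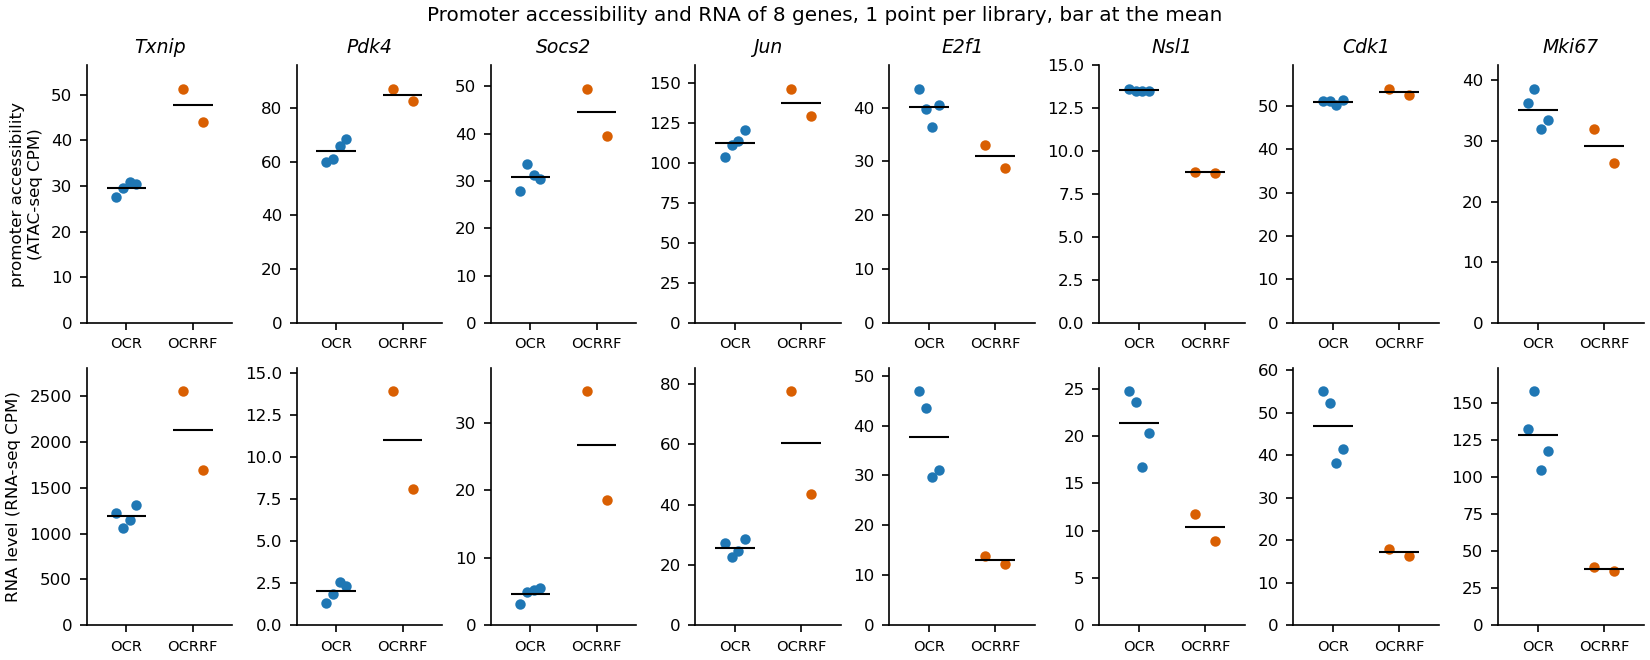
Promoter accessibility (top, ATAC-seq CPM) and RNA level (bottom, RNA-seq CPM) of 8 genes in each OCR and OCRRF library, 1 point per library with a bar at the mean, all axes from 0. The 2 OCRRF libraries lie above the 4 OCR libraries in both rows for Txnip, Pdk4, Socs2 and Jun and below them for E2f1 and Nsl1, while the Cdk1 promoter runs from 50.1 to 53.9 CPM and its RNA from 55.1 down to 16.2.

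Of the 93 promoter peaks that passed the adjusted p, 86 stood on 101 genes with tested RNA. RNA was called for 14 of them (13.9%), where 6.48% of the 15052 genes with both readouts were called, and 13 of the 14 had the same direction. The peaks that passed and the 975 genes called in RNA both come from HSCs of the same diets, in separate libraries. In addition to the genes above, RNA and accessibility were both higher for Plxdc2 (0.34 in accessibility, 0.84 in RNA), Spef2 (0.32 and 0.77), Lrrc74b (0.38 and 1.30) and Xlr3b (2.33 and 2.42), and both lower for E2f1. Dach1, a nuclear repressor of the Dachshund family, was the exception, higher in accessibility (0.26) and lower in RNA (-0.49). These genes were chosen by both tests after their values were seen. Xlr3b belongs to a family of near-identical X-linked copies, so its counts are uncertain, and its peak was uneven in OCR at 0.352, 0.368, 2.33 and 1.47 CPM against 7.06 and 4.24 CPM in OCRRF.

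From the side of RNA, promoters of genes with higher RNA were more often higher in accessibility. RNA was called for 975 of 15108 tested genes with a promoter peak (6.45%, against 3.41% of all genes), 166 higher in OCRRF (1.1%, against 0.694%) and 809 lower (5.35%, against 2.71%). Of the 166 genes with higher RNA, 127 (76.5%) had a promoter log2 fold change above 0, with a median of 0.12, and 11 passed. Of the 809 genes with lower RNA, 427 (52.8%) had a promoter value below 0, with a median of -0.01, and 2 passed below 0 and 1 above. Over all 15052 genes 55.4% were above 0 and the median was 0.02. For RNA more than 2-fold higher the promoter median was 0.15 over 47 genes, and for RNA more than 2-fold lower -0.04 over 180. Across genes the log2 fold changes correlated at rho 0.053, a description over genes that share libraries.

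Most genes of the S phase and G2/M lists had lower RNA in OCRRF, and none of the listed promoters passed the test. E2f1 and Nsl1, outside these lists, had lower RNA and promoters that passed lower. All 42 S phase genes with a promoter peak carried H3K4me3 without H3K27me3, at a median of 28.9 CPM per kilobase. RNA was lower in OCRRF for 39 of the 42 with a median log2 fold change of -1.08, against 5.35% of all genes with a promoter peak. None of the 42 promoters passed the adjusted p in edgeR, and their median log2 fold change was -0.06 with a range of -0.52 to 0.22. Of 49 G2/M genes, RNA was lower for 44 with a median of -1.24, none of the promoters passed, and the median was 0.04 in accessibility.

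Single genes show the same. Cdk1 held 51.1, 51.2, 50.1 and 51.4 CPM in OCR and 53.9 and 52.5 CPM in OCRRF at its promoter, where both OCRRF values were above the OCR values by a log2 fold change of 0.06 that did not pass, while its RNA went from 38.2 to 55.1 CPM down to 18.0 and 16.2 CPM (log2 fold change -1.45). Mcm5 held 65.7 to 70.9 CPM in OCR and 71.3 and 67.6 CPM in OCRRF, with an accessibility log2 fold change of 0.02 ± 0.06 (SE) and an RNA log2 fold change of -1.48. Kif11, a spindle motor, had the largest promoter value of its list at 0.34 with libraries of 29.2 to 41.4 CPM in OCR against 55.2 and 33.1 CPM, and an RNA log2 fold change of -1.82. Mki67, the proliferation marker, had -0.27 in accessibility (edgeR adjusted p = 0.202) and -1.76 in RNA, and Pimreg -0.31 and -1.78. Mcm4 (-0.52, at 1.21 to 2.62 CPM in OCR), Prim1 (-0.33) and Cdc6 (-0.29), which load or start replication forks, had promoter values below 0 that did not pass. In OCR against OAL, which shares the OCR libraries, RNA of 36 of the 42 S phase and 44 of the 49 G2/M genes was higher in OCR. There 1318 of 14741 genes with a promoter peak were called (8.94%, against 5.57% of all genes), 608 higher (4.12%, against 2.54%) and 710 lower (4.82%, against 3.03%).

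E2f1 encodes a factor that turns on many S phase genes. Its promoter peak held 43.5, 39.7, 36.4 and 40.5 CPM in OCR and 33.1 and 28.9 CPM in OCRRF. The groups did not overlap (log2 fold change -0.37, SE 0.09, edgeR adjusted p = 0.0342). The adjusted p stayed under 0.05 in only 2 of the 6 fits that each left out 1 library. E2f1 RNA was 46.9, 43.5, 29.7 and 31.1 CPM in OCR and 13.8 and 12.3 CPM in OCRRF, a log2 fold change of -1.54, and 1.24 in OCR against OAL.

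**Figure D4:**
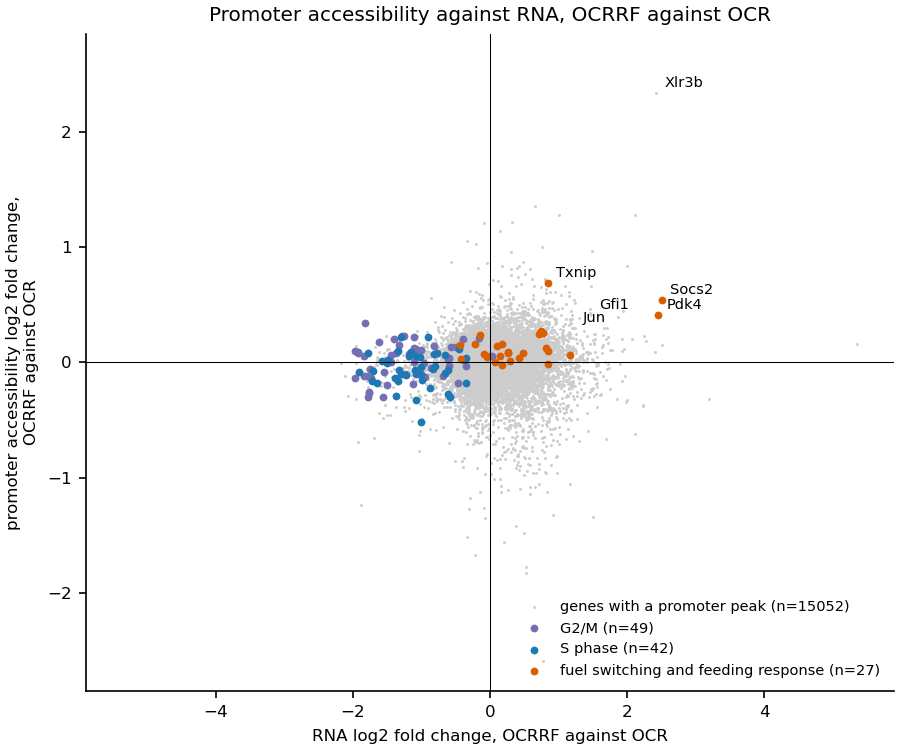
Log2 fold change of OCRRF against OCR in RNA (horizontal) and in promoter accessibility (vertical) for 15052 genes with both, with 49 G2/M, 42 S phase and 27 fuel switching genes in colour. The cell cycle genes spread to the left along 0 accessibility, with medians of -1.24 and -1.08 in RNA, while Pdk4, Socs2 and Txnip lie up and to the right.

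Of 18 tested promoters of stem cell transcription factors 2 passed, both higher, against 0.414% of all promoter peaks. Their median accessibility was 25.5 CPM per kilobase, and in the 2 most accessible quartile groups 19 and 38 of 3955 peaks each passed higher. Meis1, a Hox cofactor, held 39.4 to 43.6 CPM in OCR and 55.4 and 48.0 CPM in OCRRF (log2 fold change 0.32, edgeR adjusted p = 0.0372), and Myct1, a Myc target protein of HSCs, 21.1 to 23.3 against 28.4 and 29.1 CPM (0.39, adjusted p = 0.0448). RNA of neither passed its test. Their adjusted p stayed under 0.05 in only 2 (Meis1) and 0 (Myct1) of the 6 fits that each left out 1 library. The list's median log2 fold change was 0.06. Cebpd, a stress-responsive C/EBP factor, was higher at its promoter by 0.37 and Hbp1, a cell cycle repressor, by 0.22, without a tested RNA difference. Both were named after their values were seen. Of 12 HSC surface and identity markers none passed, with Procr, the protein C receptor, at 0.55 and Ly6a, which encodes Sca-1, at -0.42 while Ly6a RNA rose by 0.46.

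Genes of mature lineages had less open promoters, with no member that passed. Of 19 lymphoid priming genes 11 had a tested promoter peak, at a median of 7.44 CPM per kilobase, and 2 of the 11 had a log2 fold change above 0. The median was -0.12, with Il7r, the interleukin 7 receptor, at -0.60 and Rag1, the V(D)J recombinase subunit, at -0.44. Over all promoter peaks tested 8543 of 15704 were above 0. The 2 least accessible quartile groups of promoter peaks had medians of -0.04 and -0.01. Of 19 myeloid genes 9 had a tested promoter peak. Among them Gfi1, a repressor in HSCs and granulocytes, carried both marks and had 0.41 in accessibility (edgeR adjusted p = 0.0703) and 1.47 in RNA. Of 12 erythroid and megakaryocyte promoters tested the median was 0.03, although RNA was lower for 6 of the 11 with tested RNA (5.35% of genes with a promoter peak), with Pf4, a platelet chemokine, at 0.23 in accessibility and -1.06 in RNA.

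None of the listed interferon response or chaperone promoters passed, Ifi44l above being outside the list. The 26 interferon response promoters had a median of 0.05 and RNA higher for 4 (1.1% of genes with a promoter peak), among them Slfn2, a guardian of T cell quiescence, with 0.45 in accessibility and 1.94 in RNA, and Ifi44 with -0.44 and 0.48. Genes of chaperones and the unfolded protein response had open promoters, at a median of 49.8 CPM per kilobase over 20 peaks. RNA of 8 of the 20 was lower (5.35% of genes with a promoter peak), such as Calr (-0.82) and Manf (-1.02), where their promoters had 0.14 and 0.12. Of the 8 MHC class II promoters 4 were above 0. The median was 0.06 for the 22 of Polycomb and H3K4 methylation enzymes and 0.10 for the 12 housekeeping promoters. For the 6 promoters of mature lineage markers it was -0.08.

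**Figure D5:**
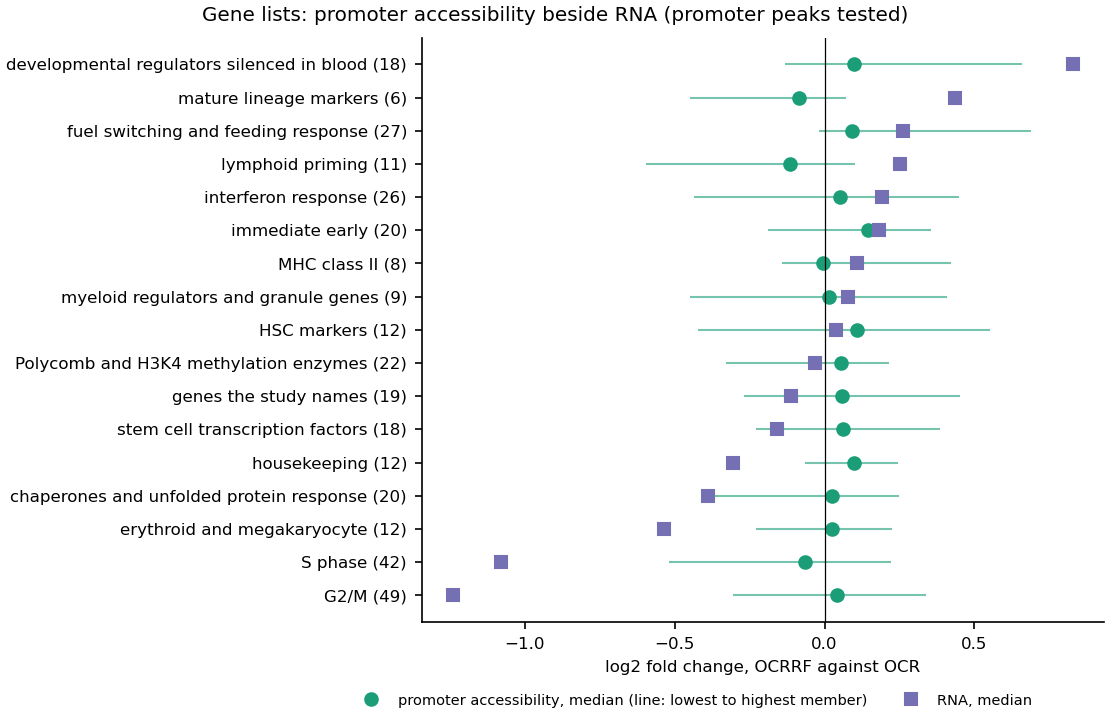
Median log2 fold change of OCRRF against OCR in promoter accessibility (circles, with a line from the lowest to the highest member) and in RNA (squares) for 17 gene lists, with the number of promoter peaks tested in brackets. RNA medians run from -1.24 to 0.83 over the lists, while the accessibility medians lie between -0.12 and 0.15. The 0.83 belongs to the developmental regulators silenced in blood, whose median RNA was 0.463 CPM and of which 0 were called in RNA.

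Of 20 genes singled out in the study, 19 had a tested promoter peak and none passed the adjusted p in edgeR. These genes were picked on the same samples, so their RNA directions are no independent evidence. Kdr, the VEGF receptor, held 15.0, 14.6, 17.4 and 16.9 CPM in OCR and 19.3 and 17.3 CPM in OCRRF, overlapping ranges, with a log2 fold change of 0.20 ± 0.12 (SE) in accessibility and a higher RNA level (14.6 to 27.5 CPM in OCR, 50.6 and 34.2 CPM in OCRRF). Bmpr1a, a BMP receptor, carried both marks, with H3K4me3 at 23.6 and H3K27me3 at 3.01, and had 0.16 in accessibility and 0.09 in RNA. Bmp4, a ligand of that receptor, had the largest value of the list, with 12.2 to 15.9 CPM in OCR and 19.3 and 17.7 CPM in OCRRF (log2 fold change 0.45, edgeR adjusted p = 0.0804), and 0.94 in RNA. Spi1, which encodes PU.1, held 24.2, 25.0, 24.5 and 31.9 CPM in OCR and 28.3 and 27.5 CPM in OCRRF, with 0.08.

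Others among them differed in RNA in both directions. Clu, an extracellular chaperone, had 0.36 in accessibility and 0.82 in RNA, and Osmr, the oncostatin M receptor, 0.16 and 0.54. Ect2, a cytokinesis factor, had a promoter value above 0 (0.23, edgeR adjusted p = 0.0602) with RNA at -1.25. The checkpoint and repair genes Chek1, Brca1 and Chek2 had -0.13, -0.12 and 0.03 in accessibility and -1.27, -1.26 and -0.70 in RNA, and Ccna2, cyclin A, 0.05 and -1.64. The energy-sensing and autophagy genes Prkaa2 (0.06), Ulk1 (-0.13) and Sqstm1 (0.02) and the fatty acid dehydrogenase gene Acadl (0.05) had no RNA difference that passed.

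PU.1 binding was compared with open promoters because PU.1 is the factor the study followed. PU.1 peaks called in both libraries of a group overlapped 2.41% of promoter peaks in OAL, 3.70% in OCR and 1.83% in OCRRF, and 1.38%, 2.01% and 1.13% of the other peaks. Single libraries gave 3.24% to 3.56% in OAL, 4.53% to 6.44% in OCR and 2.55% to 3.13% in OCRRF, and with 2 libraries a group no test was made. The 586 promoter peaks bound in OCR had a median of 26.2 CPM per kilobase, H3K4me3 of 31.4 and RNA of 61.9 CPM, against 17.0, 23.5 and 28.2 for the others. Of peaks with H3K27me3 alone none of 1166 was bound, weaker signal below the peak threshold not being counted, and of those with both marks 6 of 1185 (0.506%). Between OCRRF and OCR, the median accessibility log2 fold change was 0.01 at promoter peaks bound in OCR and 0.02 at the others. Of the 93 promoter peaks that passed, 2 were bound in OCR, one of them that of Sult1a1.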

How the data were processed

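ATAC-seq, H3K4me3, H3K27me3 and PU.1 ChIP-seq and RNA-seq of sorted HSCs were used. For ATAC-seq the authors trimmed reads with cutadapt, aligned them to mm10 with BWA, kept unique de-duplicated reads outside the ENCODE blacklist and called peaks with MACS at a false discovery rate under 0.01, merging the peaks of all replicates into one set. The deposited ATAC-seq table holds counts of reads per consensus peak. For RNA-seq the authors deposited counts per gene, made with STAR and featureCounts on GENCODE M22. The handling of strand, of multimapping reads and of the transposase offset is not given in the sources used here. The deposited histone tables hold mean signal per base of promoter windows, scaled by the authors, in windows of 750 bp for H3K4me3 and 2000 bp for H3K27me3. For PU.1 the authors deposited MACS peaks at a false discovery rate under 0.05, with a score, a fold enrichment and -log10 p and q values per peak. From these only the positions, and the q value for an alternative, were used.

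Counts were tested with the quasi-likelihood test of edgeR 4.0.16 in R 4.3.3, with TMM factors, edgeR's filter on low counts and Benjamini-Hochberg adjustment over all peaks or genes, OCRRF against OCR and, for RNA, OCR against OAL. The study used DESeq2 for peaks, which was run here as an alternative (1.42.0). A peak was called at an adjusted p under 0.05, a fold above 1.5 and a mean log2 CPM above 1.5, and RNA at an adjusted p under 0.05 and a fold above 1.2. A gene stands on its promoter peak with the highest mean count. The fits were also run on counts simulated with the fitted spread and with libraries that differed otherwise only in read total. That run cannot show how far results depend on single libraries. Libraries held 15721335 to 19558148 ATAC-seq reads in peaks, and the median standard error of a log2 fold change was 0.106 at promoter peaks. Exact permutation tests over libraries were two-sided. Genes were named by rule: up to 10 called promoter peaks higher and 10 lower, by size of the difference, where groups did not overlap, the genes the study names, the 5 promoter peaks with the highest CPM per kilobase, the called peaks whose gene was called in RNA, and up to 4 members of each list with the largest difference in accessibility. Genes named for passing the adjusted p alone or for their RNA were chosen after their values were seen. Members and lists were chosen with earlier results of these data known. Alternatives were other scalings, filters, tests, overlap rules, the replicate number as a block and each library left out.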

Additional observations from a re-analysis of the deposited data

Results flagged for a closer look

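In 5 of 160 groups of 4 OCR libraries, 1 library stood further from its nearest neighbour than Dixon's critical value for 4 samples allows as a share of the range. Chance flags about 1 in 20 groups, here 8. At the Nsl1 promoter the share was 0.895, with accessibility from 13.5 to 13.6 CPM, so the distance itself was small. At the Spi1 promoter it was 0.899, with 1 library at 31.9 CPM and the others at 24.2 to 25.0 CPM. At the Ppargc1a promoter it was 0.893, with 1 library at 56.9 CPM and the others at 51.4 to 52.0 CPM. At the Osbp promoter it was 0.907, with 1 library at 210 CPM and the others at 197 to 198 CPM. Slfn2 RNA had 0.893, with 1 library at 19.7 CPM and the others at 31.0 to 32.4 CPM.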

How the results depend on the processing

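Of the alternatives to the summary results, 90 counted as keeping the value and 42 as moving it, and no called value turned its direction. The 90 include all alternatives for the share of reads at promoters. Their values ran from -0.534 to 0.775 points, against 0.121 at first. The exact permutation test of that share cannot go under 0.05 with these libraries (smallest p 0.0667). Its count among the 90 therefore does not show a stable share. Promoter peaks called higher and lower were 5 and 12, and became 23 and 27 with the replicate number as a block, 25 and 29 with the block and a GC offset, and 65 and 28 by adjusted p alone. Higher calls were 3 when at least 50% of the peak or window had to overlap, 9 with H3K27me3 windows and 8 with no level limit, an alternative chosen after seeing the data. With 1 library left out they ran from 1 to 10 higher and 3 to 15 lower. For RNA of OCRRF against OCR (166 and 809), the block gave 524 and 2234, DESeq2 gave 1913 lower, and leaving out 1 library 31 to 487 higher and 266 to 1664 lower. For OCR against OAL (608 and 710) leaving out 1 library gave 456 to 741 and 458 to 703. The replicate numbers share no stated animal or day, and deviations of same-numbered libraries correlated at -0.03 and -0.01 in ATAC-seq and -0.16 to 0.09 in RNA-seq, so the block was not used.

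The rank correlation of accessibility with H3K4me3 was 0.560 with the mean over windows and 0.574 with CPM in place of CPM per kilobase. With H3K27me3 it was -0.433 and -0.354, and -0.425 to -0.411 with 1 library left out. With RNA it was 0.467 with the mean over genes and 0.435 with CPM. PU.1 peaks of either library overlapped 4.39% of promoter peaks in OAL, 7.26% in OCR and 3.84% in OCRRF, and single libraries 3.24% to 3.56%, 4.53% to 6.44% and 2.55% to 3.13%. The difference in the share of reads at promoters (0.121 points, not past its test) ran from -0.534 to 0.775 with 1 library left out and was below 0 without OCR replicate 1 or OCRRF replicate 1. Of 35 named promoter peaks past the adjusted p, 29 held with DESeq2, 24 with loess offsets, 29 with the block, 3 without OCRRF replicate 1, 13 without OCRRF replicate 2 and 17 without OCR replicate 1 or 2. Subtracting the median of peaks within 1 Mb, chosen after seeing the data, moved 15 of the 35. The causes were not tested. With 2 OCRRF libraries, the depth and number of libraries limit what could pass.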

Other observations

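Accessibility differed by region as well as by promoter. Over 1076 bins of 2 Mb with at least 20 peaks, the median log2 fold change of OCRRF against OCR was 0.03, and 90% of bins lay between -0.12 and 0.13. The lowest bin was on chromosome 11 from 110000001 to 112000000 (mm10), with a median of -0.37 over 29 peaks, and the next bin of that chromosome, from 112000001 to 114000000, had -0.27 over 42 peaks. On chromosome 1 the bin from 184000001 to 186000000 had -0.27 over 50 peaks and that from 176000001 to 178000000 had -0.26 over 41. Of the highest bins, that on chromosome 13 from 50000001 to 52000000 had 0.21 over 50 peaks. Its libraries were uneven, with OCRRF replicate 1 at 0.32 and OCRRF replicate 2 at 0.08. The promoter peaks inside the bins named here had medians of -0.33, -0.28, -0.19, -0.23 and 0.21 in the same order. These bins were chosen after their values were seen and were not tested.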
